A study of Homo sapiens with 22 samples.

Results

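The comparison described here was between cells expressing shZNF598 and cells expressing shControl early in a BRIC-Seq chase, at 2 and 4 h after bromouridine (BrU) had been removed. Its members were chosen by chase time alone and came to 8 of the 22 libraries of the series, 4 per shRNA and 2 per shRNA and time. BRIC-Seq is a pulse-chase assay in which RNA made during the pulse carries BrU, and that RNA is recovered by immunoprecipitation with an anti-BrdU antibody after a chase in medium without BrU. All groups were HEK293T cells, a human embryonic kidney line, and all received 150 µM BrU for 24 h before the chase, so the 4 groups used here (shControl at 2 h, shControl at 4 h, shZNF598 at 2 h and shZNF598 at 4 h) differed by shRNA and by chase time. The control arm expressed a control shRNA and the knockdown arm expressed ZNF598-targeting shRNA. The sources used here give neither the number of hairpins or clones nor whether replicates were separate cultures, so the p-values measure the spread between these libraries, which may be technical. Each value compares a transcript with the rest of the recovered RNA, and a change in the total amount of labelled RNA per cell cannot be told apart from no change.

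When a ribosome halts on an mRNA and the one behind runs into it, ZNF598 attaches ubiquitin to small-subunit proteins at the interface between them. The leading ribosome is then taken apart and its unfinished peptide destroyed, and the message itself may be cut and lost. A labelled transcript in a chase carries both its production during the pulse and its loss since then, so a higher level in one arm can come from either.

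Counts summed over transcripts came to between 65953649 and 91211914 per library, and 13480 of 61156 named genes had a mean of 1 CPM or more (CPM, read counts scaled to library size) over the 20 libraries of 0-10 h. Each gene was represented by its transcript row with the highest mean count. Of the HEK293T markers, VIM was at 116-138 CPM and LIN28B at 30-44.3 CPM of the library total, but the kidney factor PAX2 did not exceed 0.091 CPM and PAX8 was at 0 in 7 of the 8 libraries. The 9 markers summed to 204-211 CPM in shControl and 206-216 CPM in shZNF598. The 13 markers of other cells summed to 1.1-1.6 CPM in shControl and 1.1-1.4 CPM in shZNF598, mostly COL1A1, with CD3E and HBB at 0 in all 8 libraries.

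ZNF598, the targeted gene (ENSG00000167962, transcript ENST00000562103.2, chr16:1997655-2009821 on the minus strand of GRCh38), was lower in every knockdown library. It was at 7.0 and 7.86 CPM in the shControl libraries of 2 h and at 0.650 and 0.747 CPM in the shZNF598 libraries of 2 h. At 4 h it was at 7.1 and 6.63 CPM against 0.46 and 0.517 CPM. The groups did not overlap at either time, with means of 7.15 ± 0.517 CPM in shControl and 0.594 ± 0.129 CPM in shZNF598 (SD, n = 4 each over both times). The log2 change was -3.60 (SE 0.11, adjusted p = 2.64e-12, edgeR quasi-likelihood test with chase time as a covariate and Benjamini-Hochberg adjustment over all genes tested, as for every adjusted p below).

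**Figure D1:**
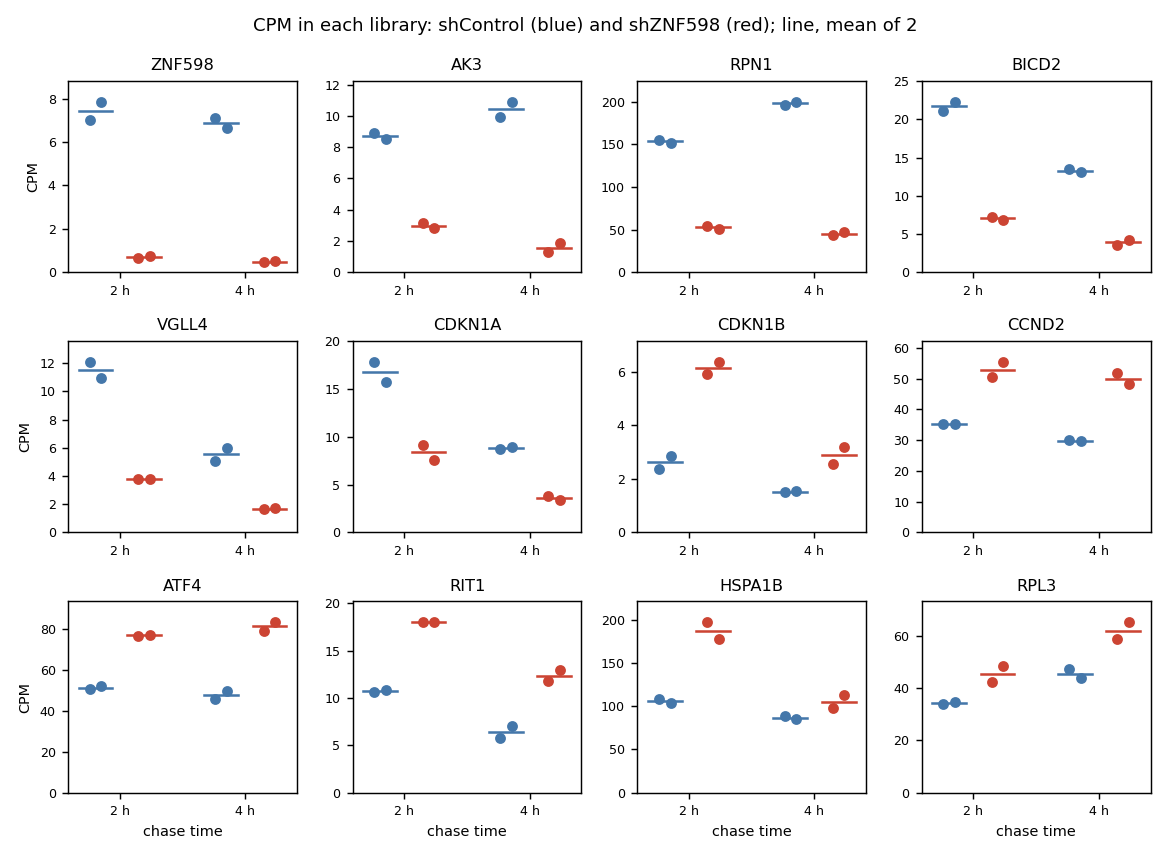
CPM (y axis, from 0) of 12 genes in each of the 8 libraries by chase time, with 1 point per library and a line at the mean of 2. ZNF598, AK3, RPN1, BICD2, VGLL4 and CDKN1A are lower in every shZNF598 library than in either shControl library of the same time, and CDKN1B, CCND2, ATF4, RIT1, HSPA1B and RPL3 are higher in every one at 2 h and again at 4 h.

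Over all genes, 1147 were called higher (8.51% of those tested) and 1150 lower (8.53%) in shZNF598 at an adjusted p below 0.05. The genes tested include pseudogenes. Of the 10961 protein-coding genes alone 876 were called higher (7.99%) and 1078 lower (9.83%). Most changes were small. The median change of a called gene was 0.31 log2 units in size, and the median of all 13480 genes was 0.02. A fold of more than 1.5 was reached by 28 genes called higher and 168 called lower, and a fold of more than 2 by 1 called higher (CDKN1B) and 34 called lower. In 2092 called genes both shZNF598 libraries lay on the same side of both shControl libraries at 2 h and again at 4 h, and these are called steady below. They comprised 1017 steadily higher genes (7.54% of all tested) and 1075 steadily lower genes (7.97%). Groups failed to overlap in this way, in either direction, for 26.8% of all genes tested. The number of calls rested on single libraries. It was 1239 without shControl 2 h replicate 1 and 1421 without shControl 4 h replicate 1, and 1494 without shControl 2 h replicate 2, against 2297 with all 8.

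**Figure D2:**
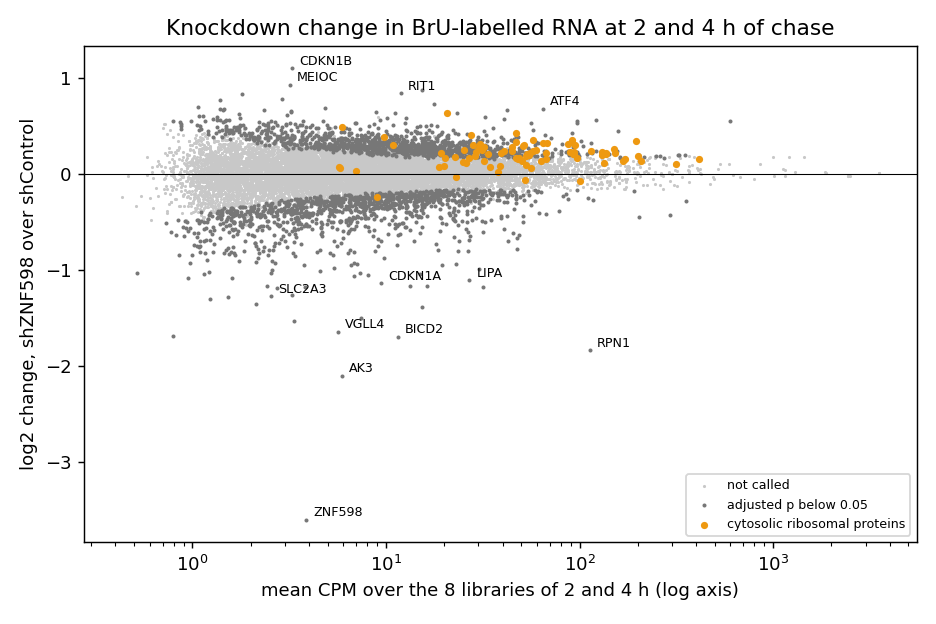
Log2 change (shZNF598 over shControl at 2 and 4 h) of 13480 genes against their mean CPM over the 8 libraries on a log axis. Genes with an adjusted p below 0.05 are dark grey and the 83 cytosolic ribosomal protein genes are orange. ZNF598 is at -3.60, the decreases reach further from 0 than the increases, and most ribosomal protein genes lie above 0.

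The genes steadily lower by the largest factors included several of the secretory and metabolic machinery. AK3, a mitochondrial adenylate kinase, was at 8.93 and 8.52 CPM in shControl and 3.14 and 2.84 CPM in shZNF598 at 2 h, and at 9.95 and 10.9 CPM against 1.32 and 1.84 CPM at 4 h. The means were 9.58 ± 1.08 and 2.28 ± 0.847 CPM (SD, n = 4 each), a log2 change of -2.10 (SE 0.17, adjusted p = 5.13e-07). RPN1, a subunit of the oligosaccharyltransferase that transfers N-glycans onto proteins in the ER, was the most abundant of these genes. It was at 155 and 152 CPM against 54.6 and 51.2 CPM at 2 h, and at 197 and 200 CPM against 43.8 and 46.9 CPM at 4 h. RPN1 changed by -1.83 (SE 0.09, adjusted p = 1.64e-09), and the shRNAs did not overlap at either time.

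BICD2, an adaptor of the dynein motor, was at 21.1 and 22.4 CPM against 7.24 and 6.86 CPM at 2 h and at 13.5 and 13.1 CPM against 3.62 and 4.2 CPM at 4 h. Its change was -1.69 (SE 0.07, adjusted p = 1.02e-10). VGLL4, a cofactor that binds TEAD transcription factors, was at 12.1 and 11 CPM against 3.8 and 3.81 CPM at 2 h and changed by -1.65 (SE 0.08, adjusted p = 1.64e-09). It overlaps ATG7, an autophagy gene on the other strand whose change was 0.14 and not called. INPP5F, an inositol phosphatase (-1.53), TGFBR3, the TGF-beta co-receptor betaglycan (-1.50), LRRC47 (-1.39), SLC45A3 (-1.35), the glucose transporter SLC2A3 (-1.27), the unnamed locus ENSG00000278943 (-1.26) and UXS1, which makes UDP-xylose (-1.18), completed the 12 largest steady decreases, with adjusted p between 2.77e-08 for TGFBR3 and 8.74e-07 for UXS1.

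CDKN1B, which encodes the CDK inhibitor p27, had the largest steady increase. It was at 2.37 and 2.86 CPM in shControl and 5.91 and 6.37 CPM in shZNF598 at 2 h, and at 1.51 and 1.53 CPM against 2.57 and 3.18 CPM at 4 h. The increase was 1.09 log2 units (SE 0.11, adjusted p = 3.33e-06). CCND2, which encodes the G1 cyclin D2, was at 35.4 and 35.1 CPM against 50.5 and 55.5 CPM at 2 h and at 29.9 and 29.8 CPM against 51.8 and 48.4 CPM at 4 h (log2 change 0.67, SE 0.06, adjusted p = 8.70e-07). RIT1, a RAS-related GTPase, was at 10.7 and 10.9 CPM against 18 and 18 CPM at 2 h and rose by 0.84 log2 units (SE 0.07, adjusted p = 8.94e-07).

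ATF4, the transcription factor of the integrated stress response, was at 50.5 and 52.4 CPM against 77.0 and 77.3 CPM at 2 h and at 46.0 and 49.8 CPM against 79.5 and 83.7 CPM at 4 h. The shRNAs were well apart at both times (log2 change 0.68, SE 0.06, adjusted p = 8.30e-07). The processed pseudogenes ATF4P3 (0.72) and ATF4P4 (0.64) were also among the 12 largest steady increases. They share sequence with ATF4, so their reads cannot be assigned with certainty, and ATF4P3 also overlaps RNF157 on the same strand, whose change was -0.10 and not called. The remaining genes of the 12 were MEIOC, a meiotic factor (0.93), the zinc finger gene ZNF770 (0.87), AMOTL2, an angiomotin of the Hippo pathway (0.77), H6PD, which makes NADPH in the ER lumen (0.69), LGI2 (0.67) and ZNF90 (0.65). ZNF90 rested on 1 library of 6.43 CPM at 2 h, while its other shZNF598 libraries were at 2.94-3.27 CPM and its shControl libraries at 2.21-2.82 CPM, and it overlaps another locus on the same strand, ENSG00000224864 (0.66), with which it may share reads.

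Cytosolic ribosomal protein genes formed the list with the largest share of members called higher. Their mRNAs typically start with a 5' terminal oligopyrimidine (TOP) tract, a C followed by a run of pyrimidines that makes their translation sensitive to mTOR. Windows of 30 bases around the annotated start, from RefSeq promoters on GRCh38.p14, are shown for the 5 members called higher with the smallest p among those that have a promoter in the table and hold such a tract, with the match (a C and at least 4 further C or T inside the stretch searched) in capitals, and for RPS27L, the 1 member called lower, which holds none near its start. The lines are RPL3 (chr22:39319609-39319638, minus strand), RPS9 (chr19:54200843-54200872, plus), RPL13A (chr19:49487593-49487622, plus), RPS21 (chr20:62387088-62387117, plus), RPL27A (chr11:8682777-8682806, plus) and RPS27L (chr15:63157463-63157492, minus), each written 5' to 3' on the gene's strand. In RPL13A and RPS21 the run of pyrimidines goes on outside the stretch searched, in lower case.
RPL3: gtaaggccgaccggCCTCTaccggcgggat
RPS9: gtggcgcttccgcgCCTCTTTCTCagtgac
RPL13A: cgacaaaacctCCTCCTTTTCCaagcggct
RPS21: ggtgactagctgCTTCCTTTCTCTCtcgcg
RPL27A: ttggcgaaggCCTTCCTTTTTCgtctgggc
RPS27L: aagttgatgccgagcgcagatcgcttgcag

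A tract of this kind, beginning within 5 bases of the annotated start on the gene's strand, was found in 51 of the 66 tested ribosomal protein genes with a promoter in the table (77.3%), against 22.6% of the 9001 tested genes with one and 21.1% of all 27305 promoters. It was found in 25 of 33 members called higher (75.8%) and in 26 of the 33 others (78.8%). RPL10, also among the members with the smallest p, had no such tract at the start given by RefSeq.

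Of 83 ribosomal protein genes tested, 42 were called higher (50.6%) and 1 lower (1.20%), and 37 of the 42 were steady. The median log2 change of the list was 0.21, beside 0.02 over all genes, and 79 of the 83 values were positive. Together the 83 genes took 2.00 and 1.92% of counts in shControl against 2.36 and 2.20% in shZNF598 at 2 h, and 2.51 and 2.47% against 2.57 and 2.83% at 4 h. The shares were higher at 4 h than at 2 h in both arms, and the arms did not overlap at either time. RPL3, of the large subunit, was at 33.8 and 34.5 CPM in shControl and 42.2 and 48.3 CPM in shZNF598 at 2 h, and at 47.1 and 43.8 CPM against 58.6 and 65.2 CPM at 4 h. It had the smallest p of the list (log2 change 0.43, SE 0.06, adjusted p = 1.57e-04). RPS9, of the small subunit, was at 18.5 and 16.9 CPM against 27.5 and 23.5 CPM at 2 h and at 31.1 and 29.2 CPM against 36.1 and 37.4 CPM at 4 h (0.40, SE 0.07, adjusted p = 8.04e-04). RPL13A (0.35, adjusted p = 0.00132) and RPS15A (0.29, adjusted p = 0.00132) moved alike, and RPS20, one of the proteins that ZNF598 ubiquitinates, changed by 0.30 (adjusted p = 0.00802). RPS16, at 0.63 the largest value of the list and named here after its values were seen, rested on 1 shZNF598 library of 38.9 CPM, beside 20.4-20.8 CPM in the other shZNF598 libraries.

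RPS27L, a paralog of RPS27 that is also a p53 target, went the other way. It was at 8.43 and 7.94 CPM against 7.38 and 6.58 CPM at 2 h and at 11.5 and 10.9 CPM against 8.83 and 10.1 CPM at 4 h (log2 change -0.24, SE 0.07, adjusted p = 0.0268). The count of ribosomal protein genes called higher was 22 without shControl 2 h replicate 1, 21 without shControl 2 h replicate 2, 26 without shZNF598 2 h replicate 1 and 25 without shZNF598 4 h replicate 2, and the median of the list stayed between 0.14 and 0.25 whichever library was left out. It was 14 when all 20 libraries of 0-10 h were fitted together, with a median of 0.20. Ribosomal protein genes have many processed pseudogenes, and how reads were divided between them was not tested.

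**Figure D3:**
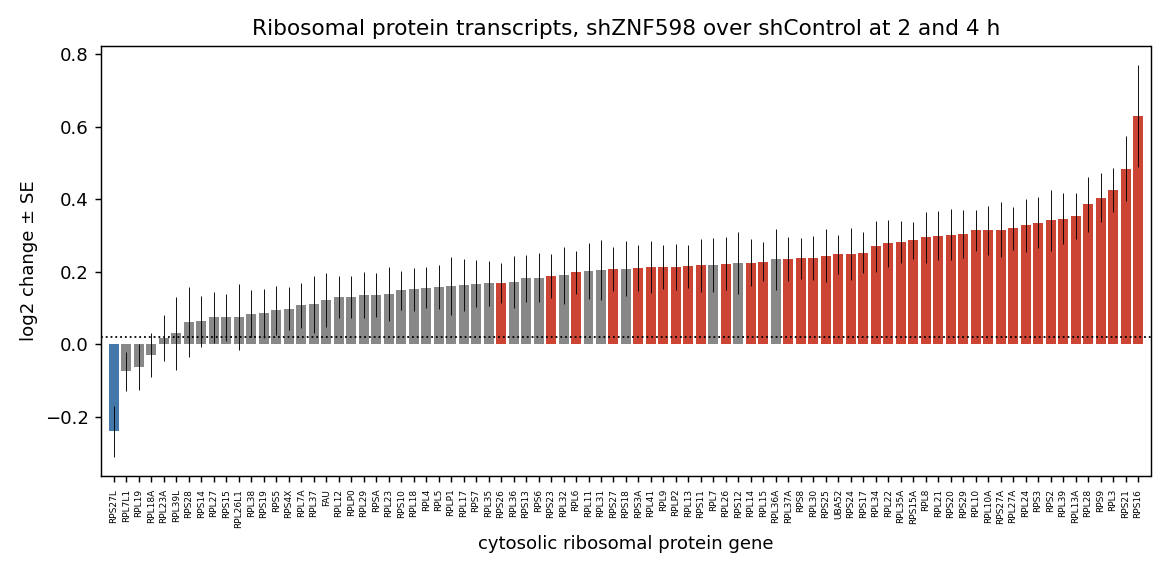
Log2 change with its SE for each of 83 cytosolic ribosomal protein genes, sorted, with called members in red (42 higher) and blue (RPS27L, lower) and the others in grey. The dotted line is the median of all genes tested, 0.02, and 79 genes lie above 0.

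Nuclear-encoded subunits of the respiratory chain, which carry out oxidative phosphorylation in mitochondria, leaned the same way at 2 and 4 h but not later in the chase. At 6 and 10 h 0 were called higher and 11 lower of 90, with a median of -0.045, beside 4.66% and 6.94% of all genes called. At 2 and 4 h, of 90 tested, 18 were called higher (20%) and 3 lower (3.33%). The median was 0.12, and 0.053 without shZNF598 2 h replicate 1. Those called higher with the smallest p were ATP5MK (0.33), COX6C (0.38), ATP5F1E (0.33) and NDUFB11 (0.26), subunits of ATP synthase, cytochrome c oxidase and complex I. ATP5MK was at 6.16 and 6.56 CPM against 8.80 and 8.28 CPM at 2 h and at 8.95 and 9.12 CPM against 10.4 and 11 CPM at 4 h (adjusted p = 0.00363). NDUFB4, of complex I, was lower, at 6.51 and 6.30 CPM against 5.13 and 4.72 CPM at 2 h and 8.37 and 8.49 CPM against 5.66 and 5.99 CPM at 4 h (-0.46, adjusted p = 4.36e-04). The 18 became 5 without shControl 2 h replicate 1, 4 without shControl 2 h replicate 2, 7 without shZNF598 2 h replicate 1 or shControl 4 h replicate 1, 6 without shZNF598 4 h replicate 2 28 without shZNF598 4 h replicate 1, and 3 when all 20 libraries were fitted together. Mitochondrial ribosomal proteins had 7 called higher (8.64%) and 5 lower (6.17%) of 81, beside 8.51% and 8.53% of all genes, and a median of 0.03. The 7 became 3 to 4 without shControl 2 h replicate 1 or 2, shZNF598 2 h replicate 2 or shZNF598 4 h replicate 2. The 5 became 3 without shControl 2 h replicate 1, shZNF598 2 h replicate 2, shControl 4 h replicate 1 or 2, or shZNF598 4 h replicate 1.

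Host genes of small nucleolar RNAs (snoRNAs), all tested members of which are long noncoding genes except TAF1D, and several of which carry a 5' pyrimidine tract as ribosomal protein mRNAs do, included 6 called higher (27.3%) and 1 lower (4.55%) of 22, with a median of 0.17. TAF1D, which encodes a subunit of the RNA polymerase I factor SL1 and hosts snoRNAs in its introns, is represented by a transcript with a retained intron and was at 6.86 and 6.94 CPM against 10.2 and 10.2 CPM at 2 h and at 9.21 and 9.56 CPM against 14.1 and 14.2 CPM at 4 h (0.58, SE 0.06, adjusted p = 6.41e-06). GAS5 (0.46, adjusted p = 3.15e-04), SNHG1 (0.33, adjusted p = 0.00141) and SNHG12 (0.32, adjusted p = 0.0143) were higher too. SNHG16 was the exception, at 63.4 and 65.1 CPM against 44.5 and 44.4 CPM at 2 h and 51.5 and 57.7 CPM against 40.7 and 38.1 CPM at 4 h (-0.50, adjusted p = 1.29e-05). The 6 became 3 without shControl 2 h replicate 1 or without shZNF598 4 h replicate 2, and 3 of 15 with the canonical transcript of each gene, where the median was 0.07.

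**Figure D4:**
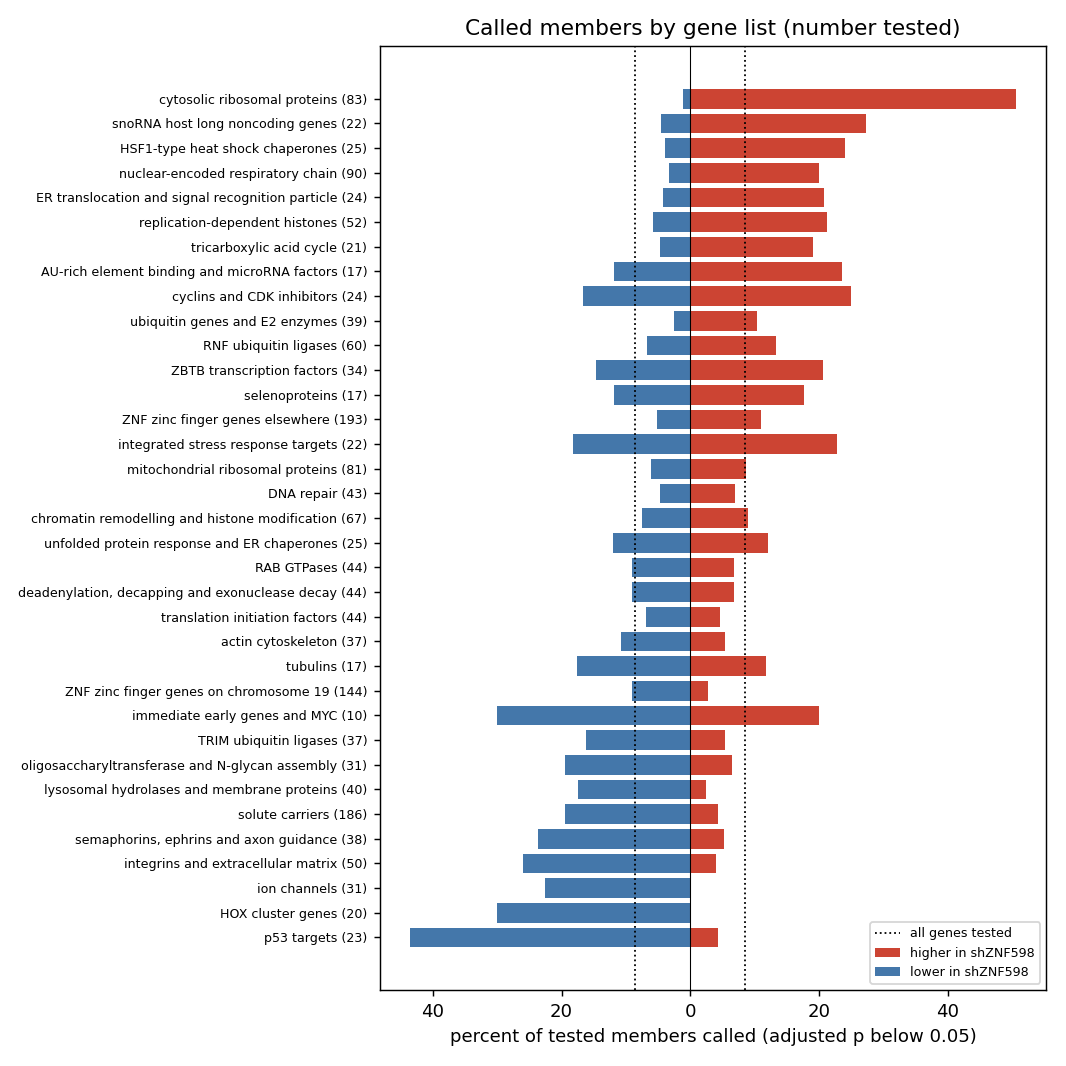
Percent of tested members called higher (red, right) or lower (blue, left) in shZNF598 at 2 and 4 h for the 35 gene lists with at least 10 members tested and at least 5 called, with the number tested in brackets. Dotted lines are the shares over all genes, 8.51% and 8.53%. Ribosomal proteins are at the top with 50.6% higher and p53 targets at the bottom with 43.5% lower.

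Chaperones of the heat shock response, which keep proteins folded under stress, included several of the more abundant genes called higher. Of 25 tested, 6 were called higher (24.0%) and 1 lower (4.00%), with a median of 0.10, which was 0.06 without shZNF598 2 h replicate 2. HSPA1B, an HSP70, was at 108 and 103 CPM in shControl and 198 and 177 CPM in shZNF598 at 2 h, and at 88.4 and 84.9 CPM against 97.6 and 113 CPM at 4 h. The log2 change was 0.83 at 2 h and 0.25 at 4 h, and 0.56 over both (SE 0.09, adjusted p = 6.27e-04). The shRNAs were thus nearer at 4 h, but the test of the difference between the times, by the same quasi-likelihood method, gave an adjusted p = 0.826 (unadjusted 5.52e-04). HSPA1A, its near-identical neighbour, was at 87.7 and 82.6 CPM against 160 and 142 CPM at 2 h and changed by 0.55 (adjusted p = 7.57e-04). These genes share most of their sequence and HSPA1L (also called) lies beside HSPA1A on the other strand, so the 3 calls are not independent. HSP90AA1, an HSP90, was at 464 and 496 CPM against 562 and 928 CPM at 2 h and at 507 and 481 CPM against 673 and 688 CPM at 4 h (0.55, SE 0.11, adjusted p = 0.00259). DNAJB6, an HSP40, changed by 0.30 (adjusted p = 0.00102), and CHORDC1, an HSP90 co-chaperone, was lower (-0.41, adjusted p = 0.00999) but not steady. The 8 subunits of the TRiC chaperonin lay between 0.02 and 0.16, and none of them was called.

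Heat shock genes are switched on by HSF1, which binds elements built from inverted GAA units. The letters GAANNTTC or TTCNNGAA, which cover both strands, occurred in the 250 bases before the start of 4 of the 6 chaperone genes called higher and 5 of the 17 others with a promoter in the table, against 8.24% of tested genes and 11.7% of all promoters. CHORDC1, the member called lower, held the most matches, 6, and HSPA8, which was not called, held 4. Windows of 30 bases with the match in capitals are shown for HSPA1B (chr6:31827622-31827651, plus strand, GRCh38.p14), HSPA1A (chr6:31815426-31815455, plus) and DNAJB6 (chr7:157336867-157336896, plus), which are called higher and hold a match. HSP90AA1 and HSPH1, also called higher, hold none in the table's window.
HSPA1B: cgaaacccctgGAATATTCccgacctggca
HSPA1A: cgaaaaccctgGAATATTCccgacctggca
DNAJB6: agccgagaaccTTCGCGAAggtggggcggg

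The HSPA1A match is the same stretch of DNA that is counted for HSPA1L, read from the other strand. The HSPA1B window is nearly the same as that of HSPA1A, so the matches of HSPA1A, HSPA1B and HSPA1L are not independent.

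Targets of the integrated stress response did not move one way. Of 22 tested, 5 were called higher (22.7%) and 4 lower (18.2%), with a median of 0.08. Beside ATF4 itself, PPP1R15A, the phosphatase subunit that reverses eIF2α phosphorylation, was at 2.67 and 3.01 CPM against 4.15 and 4.30 CPM at 2 h and at 2.03 and 1.84 CPM against 2.39 and 2.71 CPM at 4 h (0.49, adjusted p = 0.00252). ATF3 changed by 0.49 (adjusted p = 0.00470) and PHGDH, of serine synthesis, by 0.22 (adjusted p = 0.0143). The amino acid transporter SLC7A5 (-0.27, adjusted p = 0.00502), the secreted factor STC2 (-0.38, adjusted p = 0.0110), SHMT2 (-0.18, adjusted p = 0.0324) and the pseudokinase TRIB3 (-0.39, adjusted p = 0.0432) were lower. The 5 became 3 without shControl 2 h replicate 1, shZNF598 2 h replicate 2 or shControl 4 h replicate 2. The 4 became 2 without shControl 2 h replicate 1 or 2, shControl 4 h replicate 2, or shZNF598 4 h replicate 1 or 2. Among markers of the unfolded protein response, 3 of 25 were called higher (12%), XBP1 (0.42) among them, and 3 lower (12%). The shares over all genes were 8.51% and 8.53%.

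p53 targets had the largest share of members called lower. p53 is held inactive in HEK293T cells by viral proteins that the line carries, and these genes also have other regulators. Whether p53 had a part in the changes given here was not tested. Of 23 tested, 10 were called lower (43.5%), all of them steady, and 1 higher (4.35%), with a median of -0.21. CDKN1A, which encodes the CDK inhibitor p21, was at 17.9 and 15.8 CPM against 9.18 and 7.57 CPM at 2 h and at 8.72 and 8.94 CPM against 3.77 and 3.35 CPM at 4 h. CDKN1A changed by -1.14 (SE 0.09, adjusted p = 2.95e-07), while CDKN1B, the related inhibitor, rose as given above. AEN, an apoptosis-enhancing nuclease, was at 35 and 36.6 CPM against 29.0 and 27.4 CPM at 2 h and 14.5 and 14.3 CPM against 10.4 and 10.5 CPM at 4 h (-0.40, adjusted p = 1.45e-04). FDXR, ferredoxin reductase (-0.55, adjusted p = 2.11e-04), and DDB2, of nucleotide excision repair (-0.37, adjusted p = 0.0121), were lower as well. GADD45A, the 1 member called higher (0.44, adjusted p = 0.0316), was above shControl at 2 h only, with 3.69 and 3.99 CPM against 2.27 and 2.40 CPM, and its values overlapped at 4 h. The 10 became 6 without shControl 2 h replicate 1 and 5 when all 20 libraries were fitted together.

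Cyclins and CDK inhibitors as a list were called in both directions, 6 higher and 4 lower of 24, with CCNT1 (0.41) and CCNE2 (0.30) beside CDKN1B and CCND2. The 6 became 3 without shControl 2 h replicate 1, shControl 4 h replicate 1 or shZNF598 4 h replicate 2, and the 4 became 2 without any 1 shControl library or without shZNF598 4 h replicate 2. Of 40 DNA replication genes 2 were called lower (5.0%, below the 8.53% of all genes) and 0 higher. The 2 were RRM2, the small subunit of ribonucleotide reductase (-0.80, adjusted p = 8.74e-07), and MCM5.

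Genes of the extracellular matrix and its receptors were lower more often than higher. Of 50 tested, 13 were called lower (26.0%) and 2 higher (4.00%), with a median of -0.16. LAMA4, a laminin chain, was at 2.28 and 2.55 CPM against 1.20 and 1.33 CPM at 2 h and at 3.04 and 3.21 CPM against 1.59 and 1.78 CPM at 4 h (-0.91, SE 0.10, adjusted p = 1.59e-05). COL5A2 (-0.84, adjusted p = 4.62e-04) and COL2A1 (-0.46, adjusted p = 4.62e-04), which encode fibrillar collagen chains, and TNC, which encodes tenascin C (-0.93, adjusted p = 0.00102), were lower at both times, and LAMA3, another laminin chain, was higher (0.30, adjusted p = 0.0132). The 13 became 7 without shControl 2 h replicate 1, and 8 without shControl 4 h replicate 1 or shZNF598 4 h replicate 2. With a mean of at least 5 CPM required, 5 of 26 were called lower. The median was -0.09 without shZNF598 4 h replicate 2. COL1A1, which stood for fibroblasts among the markers of other cells, was at 0.668-1.36 CPM over the 8 libraries, and its part in the result was not tested.

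Related signalling and patterning genes were called lower too. Of 13 TGF-beta, BMP and ID genes 4 were called lower (30.8%) and 0 higher, with a median of -0.19. BMP7, a secreted ligand, was at 10.2 and 10.4 CPM against 7.01 and 6.28 CPM at 2 h and at 9.78 and 8.85 CPM against 6.38 and 6.24 CPM at 4 h (-0.60, SE 0.07, adjusted p = 1.99e-05). ID2 (-0.44) and ID3 (-0.31), inhibitors of bHLH transcription factors, and LTBP1 (-0.34), which anchors latent TGF-beta in the matrix, were the others. Of 38 genes of axon guidance 9 were called lower (23.7%) and 2 higher (5.26%). With a mean of at least 5 CPM, where fewer members were tested, 2 genes of the list were called lower. The netrin receptor UNC5C (-0.80, adjusted p = 6.64e-05), the Slit receptor ROBO1 (-0.43, adjusted p = 6.92e-05) and the ephrin receptors EPHA3 (-0.52, adjusted p = 0.00186) and EPHA2 (-0.50, adjusted p = 0.00336) had the smallest p. ROBO1 was the most abundant of these 4, at 48.0 and 45.5 CPM against 33.5 and 34.9 CPM at 2 h.

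Of 20 HOX genes, the homeobox factors that set position along the body axis, 6 were called lower (30%) and 0 higher, all 6 steady, and the median was -0.10. HOXB9 was at 18 and 17.4 CPM against 11.7 and 11.6 CPM at 2 h and at 11.8 and 12.4 CPM against 8.6 and 8.37 CPM at 4 h (-0.56, SE 0.06, adjusted p = 8.44e-06). HOXB13 (-0.90), HOXD13 (-0.58) and HOXA10 (-0.43) had adjusted p of 4.21e-05, 2.91e-04 and 0.00151. The count stayed at 5 or 6 whichever library was left out. The median became -0.17 without shZNF598 2 h replicate 2, -0.21 with the canonical transcripts and -0.45 over the 5 members with at least 5 CPM.

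Membrane transporters were called lower more often than higher. Of 186 solute carriers 36 were called lower (19.4%), 33 of them steady, and 8 higher (4.30%), with a median of -0.05. SLC45A3 and SLC2A3 are given above. SLC37A4, the glucose-6-phosphate transporter of the ER, was at 9.68 and 10.2 CPM against 6.27 and 6.56 CPM at 2 h and at 13.2 and 11.9 CPM against 7.77 and 7.50 CPM at 4 h (-0.67, SE 0.07, adjusted p = 3.52e-06). SLC39A6, a zinc importer, was at 44.8 and 45.5 CPM against 29.5 and 33.5 CPM at 2 h (-0.58, adjusted p = 4.82e-06). SLC16A9 had the smallest p of the 8 called higher (0.48, adjusted p = 0.00219). The 8 became 3 without shControl 2 h replicate 1, 4 without shZNF598 2 h replicate 2 or shZNF598 4 h replicate 2 and 5 without shControl 4 h replicate 1. The 36 of 186 became 18 of 103 with a mean of at least 5 CPM and 22 of 186 with all 20 libraries. Of 31 ion channel genes 7 were called lower (22.6%) and 0 higher, with KCNJ12, a potassium channel, at -0.77 (adjusted p = 3.90e-04). With a mean of at least 5 CPM 9 ion channel genes were tested and 1 was called lower, and the median of that list went from -0.08 to 0.075.

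In several lists of the secretory and degradative compartments more members were called lower than higher, while the medians stayed near 0. They were 0.03 for N-glycan assembly (-0.02 without shZNF598 2 h replicate 1), 0.01 for lysosomal genes and -0.02 for the V-ATPase. The lysosomal median was below 0 with library totals alone, with canonical transcripts and without shControl 2 h replicate 2, shZNF598 2 h replicate 1, shControl 4 h replicate 2 or shZNF598 4 h replicate 1. Of 28 genes of COPI, COPII and Golgi transport 3 were called lower (10.7%, beside 8.53% of all genes) and 0 higher. Of protein-coding genes 9.83% were called lower. The median of the transport list was 0.05. RPN1 and 5 other genes of N-glycan assembly were called lower of 31 tested (19.4%), with MOGS (-0.51, adjusted p = 1.45e-04), the first glucosidase of N-glycan trimming, STT3B (-0.25), a catalytic subunit of the oligosaccharyltransferase, and DPAGT1 (-0.39), which starts the glycan on its lipid carrier. KRTCAP2 (0.23) and PRKCSH were called higher. RPN1 stood apart from the other members, whose changes were smaller than its -1.83. Of 40 lysosomal genes 7 were called lower (17.5%) and 1 higher (2.50%). LIPA, the acid lipase, was at 32.2 and 31.4 CPM against 16.1 and 17.3 CPM at 2 h and at 39.5 and 44.7 CPM against 16.8 and 17.8 CPM at 4 h (-1.11, SE 0.07, adjusted p = 6.34e-08). The sphingomyelinase SMPD1 (-0.78), arylsulfatase ARSA (-0.81) and the acid glucosidase GAA (-0.36) were lower, and PPT1 was called higher (0.23) without being steady. The 7 became 4 without shControl 2 h replicate 1. Of 16 subunits of the V-ATPase, the proton pump that acidifies lysosomes, 4 were called lower (25%), with ATP6AP1 (-0.48, adjusted p = 2.37e-05) and ATP6V0E1 (-0.44, adjusted p = 0.00125) at the smallest p. Of 24 genes of ER translocation and the signal recognition particle 5 were called higher (20.8%) and 1 lower (4.17%), beside 8.51% and 8.53% of all genes. SRP14 had the smallest p of those called higher (0.32, adjusted p = 0.00279). The 5 became 1 without shControl 2 h replicate 1 or 2, shZNF598 2 h replicate 2 or shControl 4 h replicate 2, then 2 without shZNF598 4 h replicate 2 and 3 without shControl 4 h replicate 1.

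Of 25 genes for collision sensors and partners of ZNF598, 3 were called higher (12%, beside 8.51% of all genes), RPS20, the ribotoxic stress kinase MAP3K20 (0.28, adjusted p = 0.0146) and the deubiquitinase OTUD3 (0.26, adjusted p = 0.0175), and ZNF598 alone was called lower. None of 17 genes for ribosome rescue and nascent chain clearance was called, with changes from -0.21 to 0.32. Among 18 nonsense-mediated decay factors 2 were called higher (11.1%, beside 8.51% of all genes) and 0 lower. They were UPF2 (0.30, adjusted p = 0.00259) and UPF3A (0.54, adjusted p = 0.0129). Of 17 AU-rich element binding and microRNA factors 4 were called higher (23.5%) and 2 lower (11.8%), beside 8.51% and 8.53% of all genes. The 4 were TNRC6A (0.49, adjusted p = 6.20e-05), AGO1 (0.37, adjusted p = 0.00135), AGO2 (0.40, adjusted p = 0.00294) and DICER1 (0.18, adjusted p = 0.0430), which belong to the silencing machinery, and the 2 were AGO4 and TNRC6C. TNRC6A was at 13.9 and 13.9 CPM against 18.9 and 20.9 CPM at 2 h and at 10.6 and 9.50 CPM against 13.8 and 13.7 CPM at 4 h. Aminoacyl-tRNA synthetases and their partners had 4 members called lower of 23 (17.4%, beside 8.53% of all genes) and none higher. The scaffold protein AIMP2 came first (-0.64, adjusted p = 1.82e-05). The count of 4 became 1 without shControl 4 h replicate 1 and 2 without shControl 2 h replicate 1, shControl 2 h replicate 2 or shZNF598 4 h replicate 2.

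Replication-dependent histones, whose mRNAs end in a stem-loop in place of a poly(A) tail, had 11 called higher (21.2%) and 3 lower (5.77%) of 52, with a median of 0.17. Of the 11, 6 were steady. H4C16 was at 12.7 and 15.3 CPM against 15.9 and 18.1 CPM at 2 h and at 8.63 and 7.70 CPM against 10.2 and 13.4 CPM at 4 h (0.40, SE 0.09, adjusted p = 0.00816). H2AC17 was the member called lower with the smallest p (-0.45, SE 0.08, adjusted p = 0.00136). It overlaps H3C12 (-0.42), also called lower, on the same strand, so the 2 may share reads. The 11 became 1 without shControl 2 h replicate 1, 2 without shControl 4 h replicate 1, 5 without shZNF598 2 h replicate 1, 7 without shZNF598 4 h replicate 2 and 19 without shZNF598 2 h replicate 2. With all 20 libraries of 0-10 h fitted together the 11 became 1. Of 17 targets of NRF2, the oxidative stress factor, 3 were called higher (17.6%, beside 8.51% of all genes) and 0 lower. FTL, the ferritin light chain, was at 112 and 100.5 CPM against 160 and 137 CPM at 2 h (0.45, SE 0.06, adjusted p = 1.22e-04).

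Zinc finger genes, most of which encode DNA-binding factors, were grouped by symbol and position. The 144 ZNF genes on chromosome 19, where most KRAB zinc finger genes lie in tandem clusters, had 4 members called higher (2.78%) and 13 lower (9.03%), with a median of 0.02. The shares over all genes were 8.51% and 8.53%, and those over protein-coding genes 7.99% and 9.83%. Elsewhere in the genome 193 ZNF genes had 21 called higher (10.9%) and 10 lower (5.18%), ZNF598 among the latter, with a median of 0.07. ZNF91, a KRAB factor of chromosome 19, was at 2.89 and 2.73 CPM against 0.91 and 1.52 CPM at 2 h and at 1.48 and 1.59 CPM against 0.679 and 0.456 CPM at 4 h (-1.28, SE 0.15, adjusted p = 3.19e-05). ZNF24, of chromosome 18, was at 106 and 106 CPM against 121 and 130 CPM at 2 h and 49.6 and 57.9 CPM against 80 and 82 CPM at 4 h (0.42, SE 0.07, adjusted p = 9.46e-04). The 21 became 9 without shControl 2 h replicate 1 or shZNF598 2 h replicate 2, 11 without shControl 4 h replicate 1, and 13 without shControl 2 h replicate 2 or shZNF598 4 h replicate 2. The 13 became 4 without shControl 2 h replicate 2, 7 without shControl 2 h replicate 1 or shZNF598 2 h replicate 2, and 8 without shControl 4 h replicate 1 or 2. The median level was 2.08 CPM on chromosome 19 and 3.81 CPM elsewhere. With a mean of at least 5 CPM, where fewer members were tested, the 13 became 2 and the 21 became 12. With all 20 libraries of 0-10 h they became 5 and 13. The 4 of chromosome 19 became 1 without shControl 2 h replicate 1 and the 10 elsewhere became 6 without shControl 4 h replicate 2. Of 60 RNF genes, which encode RING-type ubiquitin ligases, 8 were called higher (13.3%) and 4 lower (6.67%), the 8 becoming 5 without shControl 2 h replicate 1 or shControl 4 h replicate 1.

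Level, behaviour in control cells and length were compared between the steadily higher and steadily lower genes. Level entered the choice of genes tested and bears on whether a small change can be called. The median level was 11.5 CPM in steadily higher genes, 6.93 CPM in steadily lower genes and 6.87 CPM in all others. By level, 4.81% of genes under 5 CPM were called higher and 8.33% lower, while of the 273 genes at 100 CPM or more 11% were higher and 2.56% lower. Among protein-coding genes at that level that are not ribosomal proteins the shares were 7.21% and 3.37%. In shControl cells the median log2 ratio of 10 h over 0 h was -0.27 for steadily higher genes, -0.51 for steadily lower genes and -0.25 for the others. The interquartile ranges of the first and second overlapped, from -1.13 to 1.35 and from -1.13 to 0.41. This ratio rests on the shControl libraries of 0 h, whose replicates differed more from each other than those of any other group. The median transcript length of protein-coding genes was 3920, 3687 and 3576 nucleotides in the same order, and the median coding length 1287, 1440 and 1413 nucleotides. Of 1487 processed pseudogenes, which share sequence with their parent genes, 224 were called higher (15.1%) and 15 lower (1.01%).

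Whether the knockdown effect differed between 4 h and 2 h was tested gene by gene. No gene was called (0 of 13480 genes, 0% called, 442 at an unadjusted p below 0.05, edgeR quasi-likelihood test), and 3 were with DESeq2. AK3 and RPN1 had log2 changes of -1.54 and -2.77 for AK3 and -1.53 and -2.16 for RPN1 at 2 and 4 h, and the difference between times had adjusted p of 0.263 and 0.334.

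Libraries of other chase times gave the same signs for most steady genes. They entered the choice of genes only through the transcript row and the minimum level, not through the steady calls. At 0 h 931 of the 1017 steadily higher genes were above shControl (91.5%, beside 48.5% of all genes) and 1053 of the 1075 steadily lower genes were below (98.0%, beside 51.5%), with median log2 changes of 0.18 and -0.31. At 0 h 1 gene was called, ZNF598 (0.00742% of those tested, 822 at an unadjusted p below 0.05, 32 called by DESeq2). The 2 shControl libraries of 0 h differed more from each other than the replicates of any other group, and without replicate 1 or replicate 2 of that group 3110 and 4172 genes were called. At 6 and 10 h 628 genes were called higher (4.66%) and 936 lower (6.94%). Of the steadily higher genes 937 kept their sign there (92.1%, beside 53.6% of all genes) and 262 were called higher. Of the steadily lower genes 997 kept theirs (92.7%, beside 46.4%) and 444 were called lower. None of the former and 2 of the latter were called in the opposite direction. Gene lists were mixed at 6 and 10 h, beside the 4.66% and 6.94% of all genes called higher and lower there. Ribosomal protein genes had 5 called higher and 1 lower of 83 (median 0.09), heat shock chaperones 1 and 3 of 25, and ER translocation genes 0 and 2 of 24. TGF-beta, BMP and ID genes had 0 and 2 of 13 (median 0.01) and solute carriers 10 and 20 of 186 (median 0.02). Axon guidance genes had 1 and 3 of 38, and their median of -0.111 at 2 and 4 h became 0.085. HOX genes had 0 and 2 of 20 (median -0.051) and matrix genes 3 and 10 of 50 (median -0.092). p53 targets still leaned lower, with 0 and 6 of 23 (median -0.18), and histones higher, with 38 and 0 of 52 (median 0.49).

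The size of the effect was compared between 2 and 4 h and 6 and 10 h in a single fit over those 16 libraries, and 41 genes differed (0.304%). In 34 of the 41 the early change was itself called. The early minus late difference was positive in 35, among them several of the largest decreases. RPN1 went from -1.83 early to -3.19 late, LIPA from -1.11 to -2.31 and AK3 from -2.10 to -3.12. ZNF598 went the other way, from -3.60 to -2.53, as did BICD2, from -1.69 to -1.04. The count was 129 without shZNF598 10 h replicate 1, 67 without shZNF598 2 h replicate 1, and 15 without shControl 2 h replicate 2, shControl 6 h replicate 1 or shControl 10 h replicate 2. It was 20 to 26 without shControl 2 h replicate 1, shZNF598 2 h replicate 2, shControl 4 h replicate 1, shZNF598 4 h replicate 2, shControl 6 h replicate 2 or shZNF598 10 h replicate 2.

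**Figure D5:**
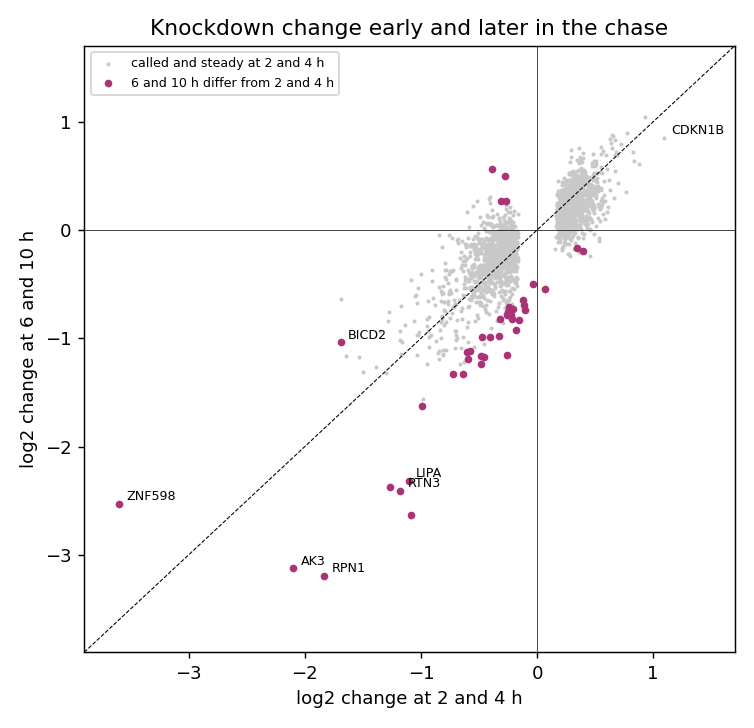
Log2 change at 6 and 10 h against that at 2 and 4 h for the 2092 steady genes (grey) and the 41 genes whose change differed between early and late (purple), with a dashed line of equality. Most steady genes keep their sign, RPN1, AK3, LIPA and RTN3 lie below the line and ZNF598 and BICD2 above it.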

How the data were processed

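The authors counted the reads. According to the labels and the published methods, base calls came from CASAVA 1.8, reads were trimmed with fastp, those of noncoding RNA were removed, and the rest were aligned with STAR 2.7.0a to hg38 with GENCODE release 32, with 1 mismatch and 1 locus allowed per read. The deposited values are raw read counts per transcript from featureCounts, beside a number that, from its values, is transcript length divided by 3. Whether counting used strand is not given in the sources used here. How reads shared by isoforms were counted is not given either. In genes with at least 1000 counts over the 8 libraries, 99.9% of 19383 transcripts whose exons lie within another of the gene had a count above 0, and 93.1% were not above any transcript holding them in any library, so summed counts can exceed the number of reads. Reads shared between paralogs and overlapping genes cannot be assigned with certainty.

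Identifiers were named with GENCODE release 44 (98.4% matched without version, and the rest held 2.22% of counts). The row with the highest mean count stood for each gene, and genes whose mean CPM in the 0-10 h libraries reached 1 entered the fit. Counts were fitted in edgeR 4.0.16 (R 4.3.3) by the quasi-likelihood test on shRNA and chase time, scaled by TMM. CPM values are scaled in the same way unless given per library total. Named genes were ZNF598, the 12 largest steady changes per direction with a mean of at least 2 CPM, and up to 4 called members per direction of each list by smallest p. Members and lists were chosen with earlier results of these data known. Replicates differed beyond sampling noise. List members taken by name prefix were limited to protein-coding and long noncoding genes, and lists were also recounted with each library left out, both choices made after seeing the data. DESeq2 1.42.0 and limma 3.58.1 were alternatives. The 24 h libraries and spike-ins were not used here. The test was checked on simulated data.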

Additional observations from a re-analysis of the deposited data

Results flagged for a closer look

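The knockdown change differed between 2 and 4 h and 6 and 10 h by an interaction test in 41 genes (edgeR, adjusted over 13480 genes). Of the genes named by the rule, RPN1 differed by 1.38 log2 units (early minus late), LIPA by 1.23, the locus ENSG00000278943 by 1.17, AK3 by 0.999, MRPS28, a mitochondrial ribosomal protein, by 0.76, CAPZB, an actin capping protein, by 0.66, LMAN1, a cargo receptor between ER and Golgi, by 0.57, SLC39A6 by 0.55 and ATP6AP1 by 0.52, each being lower late than early. ZNF598 differed by -1.09 and BICD2 by -0.64, each being lower early than late. The adjusted p lay between 4.47e-09 for RPN1 and 0.0398 for LMAN1.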

How the results depend on the processing

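The 2297 early calls and 2092 steady calls became 1514 and 1389 with a mean of at least 5 CPM, 1024 and 985 with all 20 libraries of 0-10 h in 1 fit, 380 and 380 with the 2 h libraries alone and 442 and 442 with the 4 h libraries alone, and lay between 1239 and 2326 and between 1228 and 2236 when 1 library was left out. Fewer libraries or genes entered these fits, except that with all 20, and the cause of the differing counts was not tested. With a mean of at least 5 CPM 7950 genes were tested, against 13480. Without shZNF598 2 h replicate 1 the early calls rose to 2326. The labels do not say that replicate numbers pair libraries. Deviations of same-numbered libraries correlated at 2 h (0.129), 4 h (0.356) and 6 h (0.304), hardly at 0 h (0.0142) and inversely at 10 h (-0.244). No pairing was therefore assumed. The replicate block gave 3190 and 2519. Higher genes made up 49.9% of the calls with TMM, 51.6% with DESeq2 size factors and 42.8% with library totals alone, and the median of all genes stayed between 0.003 and 0.021 under these scalings. ZNF598 kept its direction and call under all alternatives that tested it (it is under the minimum of 5 CPM), between -3.84 and -3.40.

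Calls between 4 h and 2 h numbered 3 with DESeq2, 2 with the replicate block and 0 to 1 with 1 library left out. Early against late calls numbered 113 with DESeq2 and 15 to 129 with 1 library left out. Calls at 0 h numbered 32 with DESeq2, 0 with a mean of at least 5 CPM, 89 with the replicate block and 1 to 4172 with 1 library left out. Late calls lay between 899 and 1581 with 1 library left out and numbered 1730 with the replicate block. The median of the HOX list was -0.445 with at least 5 CPM and -0.21 with canonical transcripts, that of the matrix list -0.098 with at least 5 CPM and -0.201 to -0.092 with 1 library left out, and that of the snoRNA hosts 0.07 with canonical transcripts. No named gene reversed, but of the 325 besides ZNF598 28 to 106 were no longer called with 1 library left out (106 without shControl 2 h replicate 1), 135 with all 20 libraries, 235 with 2 h alone and 222 with 4 h alone. The 2 libraries per group limit the precision of each value.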

Other observations

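Among the genes with a larger decrease late that the naming rule did not reach, named here after their values were seen, were RTN3, an ER-shaping reticulon, which went from -1.18 early to -2.41 late, CUL4B, a ubiquitin ligase scaffold, from -0.64 to -1.33, LIN7C, a cell junction adaptor, from -0.99 to -1.63, and SAP18, of the exon junction complex, from -0.73 to -1.33. CORO1C, an actin-binding coronin, went from -0.46 to -1.17 and MIPEP, a mitochondrial peptidase, from -0.26 to -1.16. The pseudogene RTN3P1 moved with RTN3, from -1.09 to -2.63. Some genes were near the control early and lower late, such as the proteasome subunit PSMA6 (-0.15 and -0.83) and the helicase DDX46 (-0.18 and -0.93).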
